A study of Saccharomyces cerevisiae with 10 samples.

Results

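Messenger RNA levels in MA-A0, one of 5 mutation-accumulation lines of budding yeast, were compared with the mean of the other 4 lines, MA-A8, MA-A4, MA-A3 and MA-A1. The samples were total RNA of each line, labelled through a dendrimer kit and hybridised on 2-colour spotted arrays, 10 arrays in all with 1 array for each pair of lines. The arrays with MA-A0 were the 4 whose label names it, with MA-A0 in Cy5 on the arrays shared with MA-A4 and MA-A8 and in Cy3 on those shared with MA-A1 and MA-A3. The other 6 arrays linked the remaining lines to one another. The labels give no strain genotype, mating type, growth medium, number of generations or ancestor, so a difference does not show which line had changed. Nothing in them tells if a line was grown afresh for each of its 4 hybridisations, and p-values then measure the spread between hybridisations, which may be technical. The number of arrays limits the precision.

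In a mutation-accumulation experiment a strain is taken repeatedly through bottlenecks, so that most mutations are kept whether or not they harm the cell. Each line then carries its own set, and lines that began alike come apart in gene expression. In budding yeast the mating type locus sets which haploid genes are on: a cells make a-factor, its exporter and the receptor for the partner's pheromone, while alpha cells make the opposite set. Respiration draws on subunits from both genomes, with the core of cytochrome oxidase, cytochrome b and parts of the ATP synthase read from mitochondrial DNA and the remaining subunits from the nucleus.

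Values are differences, MA-A0 minus a partner or minus the mean of the other 4 lines, on the log scale of the deposited table, which was read as log2 of Cy5 over Cy3. The table states neither base nor direction, and read the other way round all signs in the text would flip. If the base is 2, the largest difference that passed in MA-A0, 0.85 for AGA1, is 1.80-fold. Where 4 array values stand in a row without their partners, these are MA-A1, then MA-A3, MA-A4 and MA-A8. Standard errors are those of a linear model with a term for each line and a dye term. Adjusted p-values are Benjamini-Hochberg values of limma's moderated test over all genes tested, and a gene passed when its adjusted p was below 0.05. Genes said to rise or fall passed with a difference above or below 0. The words do not mean that MA-A0 was the line that changed.

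The 4 arrays with MA-A0 did not run together, and this bears on every value below. When each array was predicted from the other 9, the correlation of observed with predicted values across genes was 0.564 for MA-A3 over MA-A0 and 0.352 for MA-A1 over MA-A0. It was 0.187 for MA-A0 over MA-A4 and -0.157 for MA-A0 over MA-A8, against 0.471 to 0.735 for the 6 arrays without MA-A0. Turned to MA-A0 minus partner, the array with MA-A8 correlated at -0.429 with that of MA-A3, at -0.296 with that of MA-A1 and at 0.074 with that of MA-A4. Arrays of MA-A0 share this line and differ in partner, so these correlations are descriptions. The direction of the MA-A0 over MA-A8 array is not settled by the labels, so counts and the genes that passed are given with it, without it and with its sign turned. For other genes and lists the turned value is given only in part. The arrays MA-A1 over MA-A0 and MA-A0 over MA-A4 also held the fewest values of the 10, 6282 and 6341 probe rows, against 6639 to 6824 on the others.

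**Figure D1:**
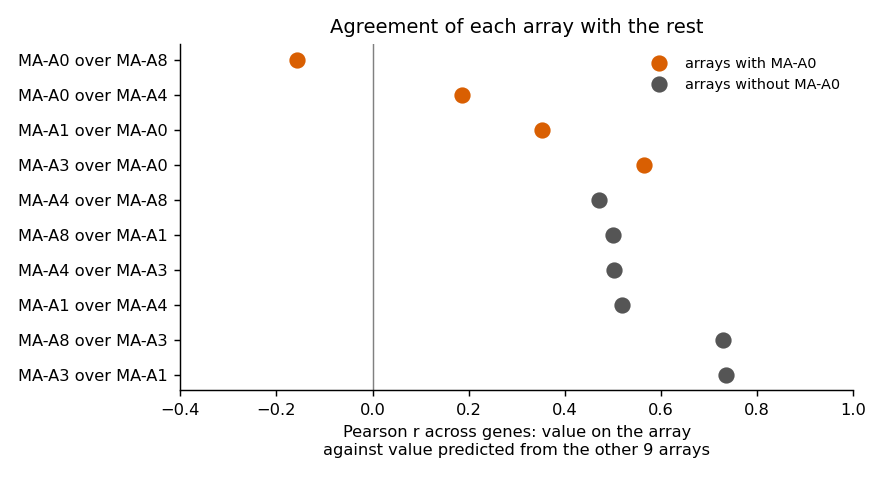
Agreement of each array with the rest. The x axis gives Pearson's r across genes between the value on an array and the value predicted for it from the other 9 arrays, with 1 point per array. MA-A0 over MA-A8 lies at -0.157, below all others, and 3 of the 4 arrays with MA-A0 lie below the 6 without it.

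Over all 10 arrays 18 of 5415 genes passed in MA-A0 against the mean of the other lines, which is 0.332% of the genes tested. Of these 12 were higher (0.222%) and 6 were lower (0.111%), with differences of 0.485 to 0.846 in size and a median standard error over all genes of 0.11. At an unadjusted p under 0.05 there were 832 genes, 425 higher and 407 lower out of 5415. Counts of list members at that threshold, given below, are to be read beside these. MA-A0 was the highest of the 5 lines for all 12 higher genes and the lowest for 5 of the 6 lower genes. The 17 genes other than BNA5 went in the direction of their difference on every MA-A0 array that measured them. The same values chose these genes, so this is no separate support. Centred only on genes outside chromosomes IX, XII and XIII the split was 7 higher and 6 lower, and without centring it was 5 higher and 0 lower.

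The count rested on single arrays. Without MA-A0 over MA-A8, 448 of 5416 genes passed (8.27%), 218 higher (4.03%) and 230 lower (4.25%), and the 18 genes above were all among them with the same sign. With that array's sign turned, 410 passed, 280 higher and 130 lower, but of the 18 only ATP19, BNA5, RBL2 and HSP30 still passed. The remaining 14 kept their sign with differences of 0.15 to 0.455 in size (adjusted p = 0.0781 to 0.688). Without MA-A1 over MA-A0 no gene passed by limma's moderated test, with 483 at an unadjusted p under 0.05. Without MA-A3 over MA-A0, 2 passed, and 8 passed without MA-A0 over MA-A4. Leaving out an array without MA-A0 gave 6 without MA-A1 over MA-A4, 7 without MA-A3 over MA-A1 and 11 without MA-A8 over MA-A1. It gave 12 without MA-A4 over MA-A8, 19 without MA-A8 over MA-A3 and 25 without MA-A4 over MA-A3.

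Genes of mating were the leading genes that rose in MA-A0. Of 8 a-specific genes tested, 3 rose and 5 did not pass, beside 0.222% of all genes that rose. The median of the 8 was 0.33, against 0.005 for all genes, and it was 0.33 without MA-A0 over MA-A8 and 0.17 with that array's sign turned.

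ASG7, which encodes an a-specific regulator of pheromone signalling in newly mated cells, read 0.82 on the array with MA-A1, 0.72 with MA-A3, 0.73 with MA-A4 and 0.81 with MA-A8. All 4 arrays put it higher in MA-A0 by nearly the same amount, in both dye orientations. Its difference was 0.77 ± 0.10 (adjusted p = 0.0104), and it passed against MA-A3, MA-A4 and MA-A8 but not against MA-A1 (0.44, adjusted p = 0.0857). ASG7 also passed without MA-A3 over MA-A0 (0.90, adjusted p = 0.0163) and without MA-A0 over MA-A4 (0.78, adjusted p = 0.0207). It did not pass without MA-A1 over MA-A0 (0.66, adjusted p = 0.159) or with the sign of MA-A0 over MA-A8 turned (0.37, adjusted p = 0.197).

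AGA2 encodes the adhesion subunit of a-agglutinin, the surface protein by which a cells stick to alpha cells. It read 0.87, 0.82, 0.66 and 0.53 on the arrays with MA-A1, then MA-A3, MA-A4 and MA-A8. MA-A0 was thus higher on every array, least on that with MA-A8. The fitted difference was 0.72 ± 0.10 (adjusted p = 0.0104), and AGA2 passed against MA-A1, MA-A3 and MA-A4, while its difference from MA-A8 was 0.48 (adjusted p = 0.185). Without MA-A3 over MA-A0 its adjusted p was 0.087, and with MA-A0 over MA-A8 turned it was 0.0781.

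AGA1 encodes the cell wall anchor to which Aga2 is bonded. It read 0.66, 0.59 and 0.80 on the arrays with MA-A1, MA-A3 and MA-A8 and had no value on that with MA-A4, so it rests on 9 arrays. Its difference from MA-A4 was thus estimated only through other arrays. Its difference of 0.85 ± 0.11 from the mean (adjusted p = 0.0104) was the largest that passed, but lies above each of its array values. AGA1 was the only gene that passed against each of the other 4 lines (0.0185% of genes tested), the smallest of these differences being 0.66 from MA-A1. Without MA-A0 over MA-A8 it no longer passed against MA-A8 (0.80, adjusted p = 0.0617), and with that array turned its difference from MA-A8 was -0.08 (adjusted p = 0.833). Against the mean of the other lines its adjusted p was 0.087 without MA-A3 over MA-A0, 0.159 without MA-A1 over MA-A0 and 0.536 with MA-A0 over MA-A8 turned.

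MFA1, one of the genes for the a-factor pheromone, read 0.59, 0.40, 0.82 and 1.21 on the arrays with MA-A1, then MA-A3, MA-A4 and MA-A8, and was highest on the array with MA-A8. Its difference was 0.76 ± 0.13 (adjusted p = 0.0218), or 0.62 ± 0.14 without that array (adjusted p = 0.0225). It did not pass when any of the other MA-A0 arrays was left out, with adjusted p-values of 0.245 without MA-A1 over MA-A0, 0.087 without MA-A3 over MA-A0 and 0.0616 without MA-A0 over MA-A4. With the sign of MA-A0 over MA-A8 turned, its difference was 0.15 (adjusted p = 0.688). In fitted levels, relative to the mean of the 5 lines, MFA1 stood at 0.60 in MA-A0, 0.002 in MA-A1, -0.10 in MA-A3 and -0.25 in both MA-A4 and MA-A8. The other 4 lines differed less from one another than MA-A0 did from any of them.

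The remaining a-specific genes did not pass over all arrays. MFA2, the other a-factor gene, read 1.61 on the array with MA-A8 but -0.53 with MA-A3, 0.04 with MA-A1 and 0.25 with MA-A4, and its difference of 0.34 ± 0.13 was 0.12 without the MA-A8 array. BAR1, whose secreted protease destroys alpha-factor, went the other way on those arrays, at -0.30 with MA-A8 against 0.45, 0.67 and 0.48 with MA-A1, MA-A3 and MA-A4. Its difference was 0.33 ± 0.11 (adjusted p = 0.200) over all arrays and 0.46 ± 0.11 (adjusted p = 0.0272) without MA-A0 over MA-A8. With that array turned it also passed (0.475, adjusted p = 0.0214). STE2, the alpha-factor receptor, AXL1, a protease that matures a-factor, and STE6, the a-factor exporter, had differences of 0.09, 0.07 and -0.005 and values of both signs across the 4 arrays.

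No alpha-specific gene passed over all arrays. The 5 tested, which encode alpha-factor, the a-factor receptor, alpha-agglutinin and an a-factor barrier, had a median of -0.11, with 3 of 3 values below 0 on the array with MA-A1, 5 of 5 with MA-A3 and 3 of 4 with MA-A4, while 4 of 5 were above 0 on that with MA-A8. STE3, the a-factor receptor, read -0.44, -0.21, -0.38 and 0.09 on the arrays with MA-A1, then MA-A3, MA-A4 and MA-A8. It had a difference of -0.24 ± 0.12 (adjusted p = 0.361), and of -0.42 ± 0.11 (adjusted p = 0.0355) without MA-A0 over MA-A8. Among 24 genes common to haploid cells or induced by pheromone, AGA1 alone rose and none fell, beside 0.222% and 0.111% of all genes, with a list median of 0.06. FUS3, the kinase of the mating pathway, read 0.59, 0.41, 0.40 and -0.01 (difference 0.35 ± 0.11, adjusted p = 0.195), and FAR1, which arrests the cell cycle in response to pheromone, read 0.43, 0.03, 0.21 and 0.92 (0.40 ± 0.12, adjusted p = 0.177).

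**Figure D2:**
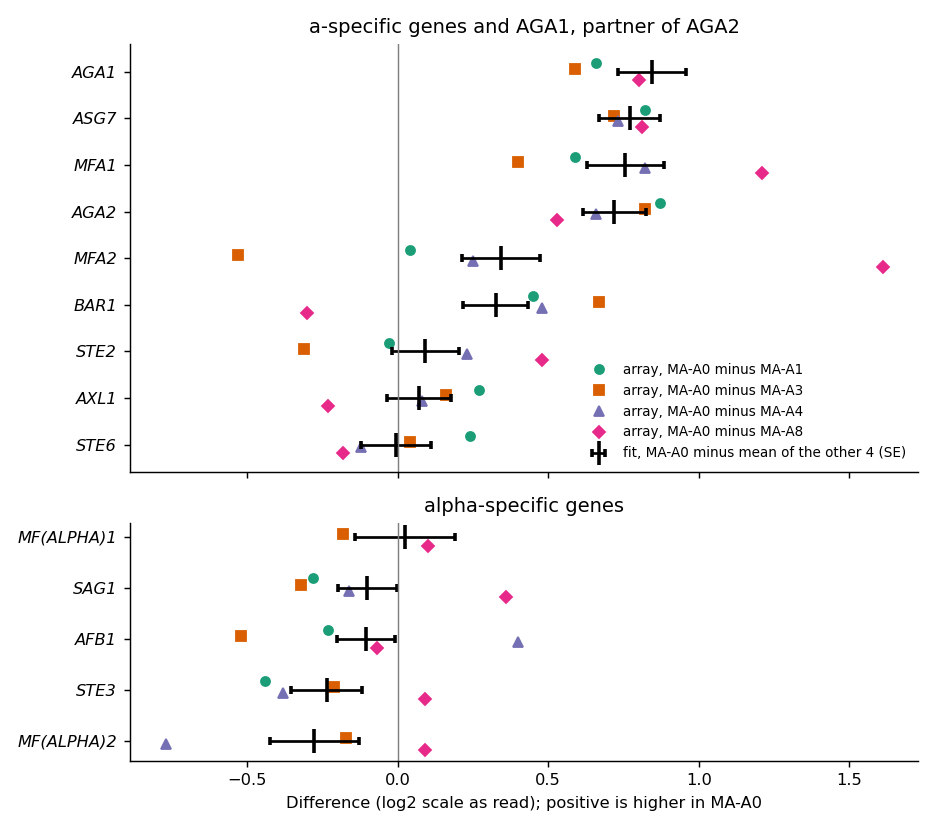
Mating-type specific genes in MA-A0. The x axis gives differences on the log2 scale as read, with coloured points for the 4 arrays with MA-A0 and black marks for the fitted difference over all lines with its standard error. AGA1, ASG7, MFA1 and AGA2 lie above 0 on each array that measured them, while MFA2 spans -0.53 to 1.61.

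The other 8 genes that rose in MA-A0 belong to several pathways. GTT1, an endoplasmic reticulum glutathione transferase, read 0.59, 0.10, 1.34 and 0.54 on the arrays with MA-A1, then MA-A3, MA-A4 and MA-A8. OPI3, the methyltransferase that completes phosphatidylcholine synthesis, read 0.19, 0.26, 1.40 and 0.66. Both were highest on the array with MA-A4, and the fitted differences were 0.64 ± 0.11 for GTT1 (adjusted p = 0.0203) and 0.63 ± 0.12 for OPI3 (adjusted p = 0.0363). GCV3, the lipoyl-carrying subunit of glycine decarboxylase, was more even, at 0.31, 0.56, 0.76 and 0.74, with a difference of 0.59 ± 0.10 (adjusted p = 0.0286). With MA-A0 over MA-A8 turned, the differences were 0.37 for GTT1, 0.30 for OPI3 and 0.22 for GCV3, and none passed.

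Respiratory subunits were among the genes that rose. ATP19, a small membrane subunit of the ATP synthase, read 1.06, 0.52, 0.75 and 0.17 on the arrays with MA-A1, then MA-A3, MA-A4 and MA-A8 and was lowest on that with MA-A8. Its difference was 0.63 ± 0.12 (adjusted p = 0.0452). COX5B, the cytochrome oxidase subunit isoform favoured at low oxygen, read 0.79, 0.18, 0.92 and 0.30, high against MA-A1 and MA-A4 and lower against MA-A3 and MA-A8. Its difference was 0.55 ± 0.11 (adjusted p = 0.0452), and in fitted levels it stood at 0.44 in MA-A0, 0.26 in MA-A3, -0.05 in MA-A8, -0.27 in MA-A4 and -0.38 in MA-A1, with MA-A0 and MA-A3 not told apart (0.18, adjusted p = 0.442).

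BNA5, a kynureninase of NAD synthesis, read 0.46, 0.59 and 1.15 on the arrays with MA-A1, MA-A3 and MA-A4 but -0.13 on that with MA-A8 (0.52 ± 0.10, adjusted p = 0.0354). RBL2, a tubulin-folding cofactor, read 0.61, 0.73, 0.64 and 0.04 (0.51 ± 0.10, adjusted p = 0.0439). CDC33, the translation factor that binds the messenger cap, read 0.27, 0.59, 0.81 and 0.27 (0.49 ± 0.10, adjusted p = 0.0476). For BNA5 and RBL2 the array with MA-A8 stood apart near 0, and neither passed in the pair with MA-A8 (0.07, adjusted p = 0.923, and 0.25, adjusted p = 0.588).

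The 6 genes that fell in MA-A0 were led by HSP30, which encodes a plasma membrane protein of stressed cells. It read -0.22 and -0.05 on the arrays with MA-A1 and MA-A8, against -1.81 and -1.15 on those with MA-A3 and MA-A4. HSP30 was thus the lower gene in MA-A0 that was not lowest there: its difference from MA-A8 was 0.07, from MA-A3 -1.76 and from MA-A4 -0.98, and over all lines -0.81 ± 0.12 (adjusted p = 0.0106). ATG41, an autophagy gene, was the most even of the lower genes, at -0.51, -0.47, -0.91 and -0.70 on the arrays with MA-A1, then MA-A3, MA-A4 and MA-A8 (-0.65 ± 0.09, adjusted p = 0.0104). It passed against MA-A1, MA-A3 and MA-A4, and its difference from MA-A8 was -0.54 (adjusted p = 0.0817). With MA-A0 over MA-A8 turned, its difference from the mean was -0.30 (adjusted p = 0.216). DIP5, the permease for glutamate and aspartate, read -0.36, -0.18, -1.34 and -0.54, lowest on the array with MA-A4 (-0.61 ± 0.11, adjusted p = 0.0354).

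DIA1, a gene linked to invasive growth, YML131W, which encodes a protein resembling oxidoreductases, and ATR1, a multidrug efflux pump, were also lower in MA-A0, and all 3 lie on chromosome XIII. DIA1 read -1.48 on the array with MA-A3 against -0.41, -0.20 and -0.61 with MA-A1, MA-A4 and MA-A8. YML131W read -1.04 with MA-A3 against -0.24, -0.30 and -0.60, and ATR1 read -0.88 with MA-A3 against -0.33, -0.58 and -0.37. Each was farthest below its partner on the array with MA-A3, where the genes of chromosome XIII had a median of -0.48, and each passed against MA-A3 and no other line. Their fitted differences over all lines were -0.68 ± 0.11, -0.55 ± 0.09 and -0.54 ± 0.10 (adjusted p = 0.0184, 0.0203 and 0.0354). With MA-A0 over MA-A8 turned they were -0.37, -0.245 and -0.355, and none passed. A higher level in MA-A3 alone enters such a difference at 0.25 of its size with the opposite sign.

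**Figure D3:**
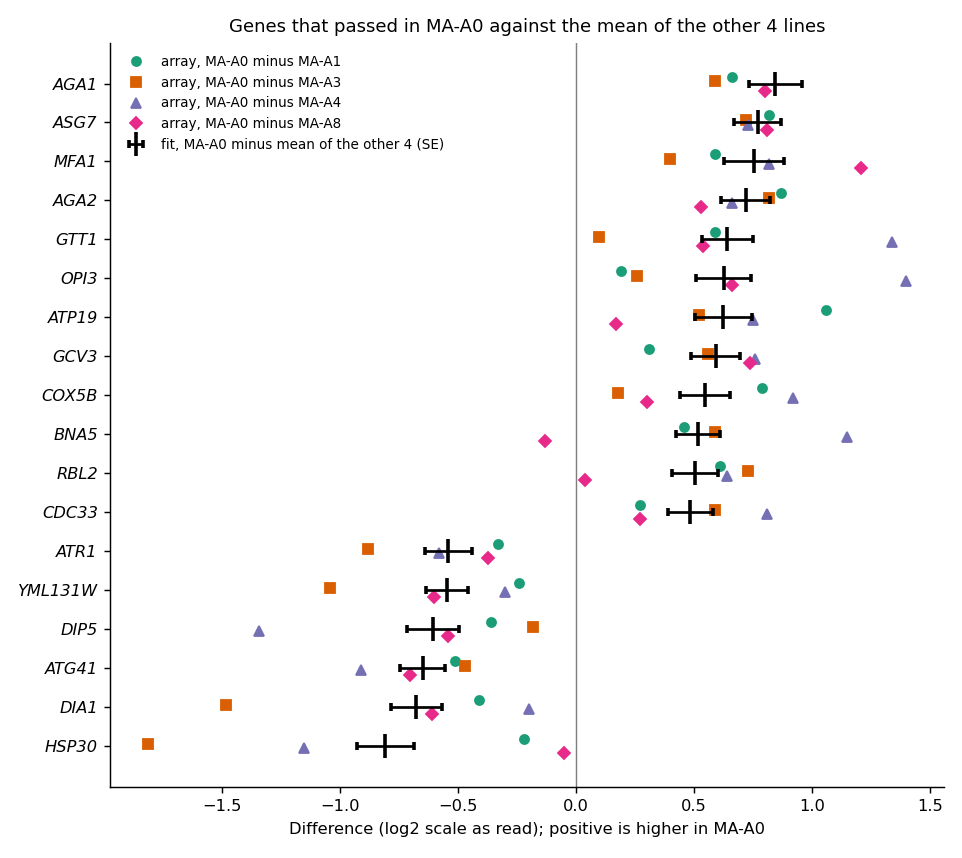
The 18 genes that passed in MA-A0 over all arrays. The x axis gives differences on the log2 scale as read, with coloured points for the 4 arrays with MA-A0 and black marks for the fitted difference with its standard error. BNA5 is the only gene with a point across 0, and the 4 mating genes AGA1, ASG7, MFA1 and AGA2 head the list.

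Set against the lines singly, MA-A0 differed most often from MA-A3. In that pair 629 genes passed (11.6%), 215 higher and 414 lower. There were 99 (1.83%) against MA-A1, 95 (1.75%) against MA-A4 and 23 (0.425%) against MA-A8. When MA-A0 over MA-A8 was left out the counts were 1183 (21.8%) against MA-A3, 810 (15%) against MA-A1, 417 (7.7%) against MA-A4 and 63 (1.16%) against MA-A8. The pairs come from the same fit and share the arrays with MA-A0, so their counts are not independent. Of the 18 genes above, 13 passed also against MA-A3, 14 against MA-A4, 10 against MA-A1 and 3, AGA1, ASG7 and MFA1, against MA-A8.

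Against MA-A3 the genes farthest down in MA-A0 were DDR2, a stress-induced gene, at -2.33 ± 0.22 (adjusted p = 3.89e-05) and YGP1, a cell wall glycoprotein gene of starved cells, at -2.29 ± 0.17. Farthest up were PHO11, a secreted acid phosphatase, at 1.42 ± 0.17 and SPL2, a regulator of phosphate uptake, at 1.30 ± 0.16. The 28 general stress genes as a list had a median of -0.85 on the array with MA-A3 but 0.26, 0.27 and 0.12 on those with MA-A1, MA-A4 and MA-A8. None passed in MA-A0 over all lines. Of the 28, 8 had an unadjusted p under 0.05, 3 higher and 5 lower, beside 425 and 407 of all 5415 genes. HSP12, a small stress protein, read -1.78 on the array with MA-A3 against 0.86, 1.31 and 1.51 with MA-A1, MA-A4 and MA-A8. In fitted levels HSP12 stood at 0.38 in MA-A0, between 2.09 in MA-A3 and -1.79 in MA-A8, with -0.34 in MA-A4 and -0.35 in MA-A1.

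Against MA-A8 the largest differences were HSP12 at 2.17 ± 0.22 (adjusted p = 0.00048) and GPH1, glycogen phosphorylase, at 1.24 ± 0.17 above MA-A8. With the sign of the array shared with MA-A8 turned, HSP12 was at 0.96 (adjusted p = 0.303), GPH1 at 0.37 (adjusted p = 0.5) and no gene passed in this pair by limma's moderated test, with 1346 at an unadjusted p under 0.05. Without that array HSP12 and GPH1 passed at 2.62 and 1.26. Farthest below were FIT3 at -1.87 ± 0.27 and FIT2 at -1.69 ± 0.32, genes of cell wall mannoproteins that retain siderophore iron, which were at -0.77 and -0.87 with the array turned. FIT3 and FIT2 were also the lowest against MA-A1, at -1.80 ± 0.27 and -1.75 ± 0.32, while their differences from MA-A3 and MA-A4 did not pass and were above 0. The highest genes against MA-A1 were CUP1-1 and CUP1-2, both at 1.21, nearly identical copies of the copper metallothionein gene that array probes may not tell apart. Against MA-A4 the heat shock gene HSP26 was 1.77 ± 0.20 higher and AGA1 1.25 ± 0.16 higher, while MET17, which makes homocysteine in sulphate assimilation, was -1.57 ± 0.16 and DIP5 -1.19 ± 0.14. AGA1 had no value on the array shared with MA-A4.

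Genes of the mitochondrial genome and nuclear genes of respiration stood on opposite sides in MA-A0, though few passed. This was not particular to MA-A0, since MA-A3 had the same signs in fitted levels. The median level of the mitochondrial list was -0.25 in MA-A0 and -0.15 in MA-A3. That of the listed nuclear genes of oxidative phosphorylation was 0.15 in MA-A0 and 0.17 in MA-A3. MA-A1 and MA-A8 had the reverse signs. All 15 mitochondrial genes tested had a difference below 0, with a median of -0.31 against 0.005 for all genes. By limma's moderated test 0 passed, with 9 at an unadjusted p under 0.05, beside 407 lower of all 5415 genes. On the arrays every measured value was below 0 with MA-A1 (13 of 13, median -0.51) and with MA-A4 (14 of 14, median -0.86). With MA-A8, 11 of 13 were below 0 (median -0.12), and with MA-A3, 14 of 15 were above 0 (median 0.18). Several are introns of the same transcripts, so these genes are not independent. With the sign of MA-A0 over MA-A8 turned the median was -0.23.

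In the fit of the other 9 arrays 6 of the 15 mitochondrial genes fell, beside 4.25% of all genes, and the median was -0.43. They were BI3, a maturase gene in an intron of COB, COB itself for cytochrome b, AI5_BETA, ATP6 for a subunit of the ATP synthase, and COX3 and COX1 for subunits of cytochrome oxidase. COB had only 2 values on the arrays with MA-A0, 0.01 with MA-A3 and -1 with MA-A4. Only the array with MA-A4 thus put it lower. BI3 read -0.98, -0.05 and -1.05 on the arrays with MA-A1, MA-A3 and MA-A4, and its difference was -0.82 ± 0.15 (adjusted p = 0.0148). COX1 read -0.52, 0.24, -0.78 and -0.06 on the arrays with MA-A1, then MA-A3, MA-A4 and MA-A8, and its difference was -0.43 ± 0.12 (adjusted p = 0.0417) without the last array and -0.28 ± 0.12 (adjusted p = 0.289) with it. The low values came from the arrays with MA-A1 and MA-A4, those with the fewest values present, and the part of the missing values in the result was not tested.

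Of 39 listed nuclear genes of oxidative phosphorylation, COX5B rose over all arrays and 38 did not pass, 13 of these having an unadjusted p under 0.05 above 0 and 2 below. The list did not hold ATP19, which also rose. The median of the 39 was 0.19, with 36 above 0. The array medians were 0.56 with MA-A1, -0.02 with MA-A3, 0.31 with MA-A4 and 0.04 with MA-A8. The fitted medians of the 39 were 0.41 against MA-A1, -0.01 against MA-A3, 0.15 against MA-A4 and 0.32 against MA-A8. The list was thus about as high in MA-A3 as in MA-A0. Without MA-A0 over MA-A8, 11 rose and 2 fell (median 0.33), beside 4.03% and 4.25% of all genes. QCR2, a core subunit of the cytochrome bc1 complex, read 0.81, 0.23, 0.35 and 0.01 on the arrays with MA-A1, then MA-A3, MA-A4 and MA-A8, and was at 0.54 ± 0.13 (adjusted p = 0.0282) without the last array. COX8, a cytochrome oxidase subunit, read 0.60, 0.15, 0.36 and 0.18 and was at 0.48 ± 0.12 (adjusted p = 0.0323). The 2 that fell in this fit were NDE2, an external NADH dehydrogenase (-0.45 ± 0.13), and CYB2, lactate dehydrogenase (-0.50 ± 0.13), which lies on chromosome XIII and read -1.28 on the array with MA-A3. Among 70 mitochondrial ribosomal protein genes 63 were above 0, with a median of 0.10, and none passed over all arrays. At an unadjusted p under 0.05, 11 were higher and 0 lower, beside 425 and 407 of all 5415 genes. In fitted levels their median was 0.08 in MA-A0 and 0.13 in MA-A3. Of all 70, 8 rose without MA-A0 over MA-A8, beside the same 4.03% of all genes.

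Iron and sulphur genes had medians below 0 in MA-A0, and none of them passed over all arrays. The 29 iron regulon genes had a median of -0.26, 24 of them below 0. At an unadjusted p under 0.05, 14 were lower and 1 higher, beside 407 and 425 of all 5415 genes. The array medians were -0.395 with MA-A1, 0 with MA-A3, -0.165 with MA-A4 and -0.21 with MA-A8. In fitted levels the list was highest in MA-A1, at 0.25, and at -0.21 in MA-A0. Without MA-A0 over MA-A8 the median was -0.30 and 6 fell, beside 4.25% of all genes: ARN2 and ARN1, siderophore transporters, FIT3, the ferric reductases FRE4 and FRE2, and BIO5, a transporter of the biotin pathway. ARN2 read -1.38, 0.18, -0.67 and -0.78 on the arrays with MA-A1, then MA-A3, MA-A4 and MA-A8, lowest against MA-A1, and its difference was -0.95 ± 0.20 (adjusted p = 0.0213) without the last array and -0.66 ± 0.20 (adjusted p = 0.183) with it. FIT3 spanned -2.74 with MA-A1 to 0.62 with MA-A3, a spread larger than that of any gene that passed over all arrays.

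The 24 genes of sulphate assimilation and methionine synthesis had a median of -0.21. At an unadjusted p under 0.05, 9 were lower and 0 higher, beside 407 and 425 of all 5415 genes. The array medians were -0.15 with MA-A1, -0.005 with MA-A3, -0.27 with MA-A4 and -0.095 with MA-A8. MET17 read -0.14, -0.41, -1.21 and -0.61 on the arrays with MA-A1, then MA-A3, MA-A4 and MA-A8, below 0 on all and lowest with MA-A4 (-0.59 ± 0.13, adjusted p = 0.0746). It passed when MA-A0 over MA-A4 was left out (-0.83, adjusted p = 0.0107). In the fit of 9 arrays MET2, the homoserine acetyltransferase, SEO1, a putative permease, and SUL1, the sulphate permease, fell, at -0.41, -0.49 and -0.45, beside the same 4.25%. The 20 phosphate regulon genes had a median of 0.17 with 0 passing and 7 at an unadjusted p under 0.05, 6 higher and 1 lower. Their fitted medians were 0.03 against MA-A1, 0.63 against MA-A3, -0.21 against MA-A4 and 0.13 against MA-A8. The list was thus highest in MA-A4 and lowest in MA-A3. It was led by PHM6, a phosphate-responsive gene of unknown function, at 0.75, 0.79, 0.51 and 0.16 (0.55 ± 0.13, adjusted p = 0.0873).

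Several large lists had medians of opposite sign on the 4 arrays with MA-A0. The 127 cytosolic ribosomal protein genes had array medians of -0.42 with MA-A1, -0.47 with MA-A3, 0.08 with MA-A4 and 0.73 with MA-A8. With MA-A3, 125 of 127 were below 0, and with MA-A8, 117 of 127 were above 0. Their fitted median was -0.02 over all arrays, -0.14 without MA-A0 over MA-A8 and -0.37 with its sign turned, and none passed with or without that array, with 5 at an unadjusted p under 0.05 over all arrays.

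The 10 histone genes had array medians of -0.08, -0.75, 0.37 and 0.97 with MA-A1, then MA-A3, MA-A4 and MA-A8. HHF1, a histone H4 gene, read -0.38, -1.42, 0.49 and 2.0 on them, with a difference of 0.17 ± 0.17 (adjusted p = 0.635). The linker histone gene HHO1 ran the other way on the last array, at 0.78, 0.31, 0.39 and -0.38, and was at 0.53 ± 0.10 (adjusted p = 0.0174) without it. The 28 genes of glycolysis and fermentation had array medians of -0.36, -0.10, 0.30 and 0.62. The 34 proteasome genes were at 0.25, 0.21 and 0.30 with MA-A1, MA-A3 and MA-A4 but at -0.26 with MA-A8. Over all arrays 32 of these 34 were above 0 with a median of 0.13 and none passed. At an unadjusted p under 0.05, 3 of the 34 were higher and 0 lower, beside 425 and 407 of all 5415 genes. Without MA-A0 over MA-A8 2 rose, a share near the 4.03% of all genes.

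**Figure D4:**
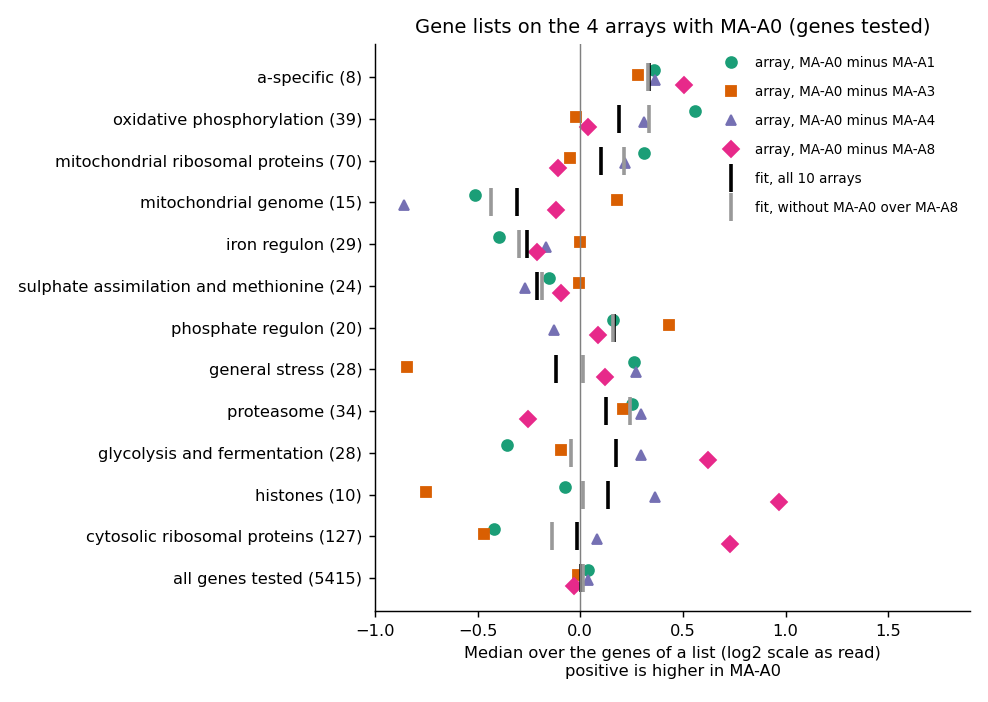
Medians of gene lists in MA-A0. The x axis gives medians over the genes of a list on the log2 scale as read, with coloured points for the 4 arrays with MA-A0, black marks for the fit of all 10 arrays and grey marks for the fit without MA-A0 over MA-A8, and the number of genes tested in brackets. Cytosolic ribosomal protein genes span -0.47 to 0.73 between arrays and histone genes -0.75 to 0.97, while the a-specific genes span 0.28 to 0.51.

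The 448 genes that passed without MA-A0 over MA-A8 were set beside that array, which had been left out because it disagreed with the rest. Their signs on it are thus a description and no independent check. Of 443 of these genes with a value on that array, 116 (26.2%) had the same sign there, against 2142 of 5402 genes fitted (39.7%). On the 3 arrays kept, the 230 lower genes had medians of -0.50 with MA-A1, -0.11 with MA-A3 and -0.76 with MA-A4, and on the array left out 0.09. The 218 higher genes had medians of 0.47, 0.38 and 0.54 on the arrays kept and -0.28 on the one left out. The lower genes thus stood near 0 in the array with MA-A3. GAA1, a subunit of the enzyme that attaches lipid anchors, read -0.33, -0.04, -1.64 and 0.25 on the arrays with MA-A1, then MA-A3, MA-A4 and MA-A8, and MPH3, a maltose permease, read -0.59, -0.09, -1.47 and -0.04. When MA-A0 over MA-A4 was also left out, or MA-A1 over MA-A0, 0 genes passed by limma's moderated test, with 614 and 1020 at an unadjusted p under 0.05.

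In that fit 14 genes (0.258%) were apart from each of the other 4 lines. The 5 higher in MA-A0 were ATP19, ASG7, GPP2, a glycerol phosphatase, YNK1, nucleoside diphosphate kinase, and YFR006W, named by its locus. SOM1, a gene of the mitochondrial inner membrane peptidase, was not among the 14 but had the smallest p in this fit of the genes named in the text. It read 0.54, 1.03 and 1.14 on the arrays with MA-A1, MA-A3 and MA-A4 and -0.40 with MA-A8. Its difference was 0.80 ± 0.10 (adjusted p = 0.0078) without the last and 0.58 ± 0.12 (adjusted p = 0.0682) with it. The 9 lower of the 14 were BI3, FRE4, HES1, an oxysterol-binding protein gene, FLO11, a flocculin of adhesion, IMA5, an isomaltase, and the loci YGL262W, YAL064W, YNL195C and YKR005C. On the array shared with MA-A3 several of them stood near 0. BI3 read -0.05 there, FRE4 -0.03, and HES1, YGL262W and YAL064W -0.11 each. The smallest fitted differences of these genes from any line were 0.41 (HES1) to 0.68 (BI3) in size. FRE4 read 0.12 on the array with MA-A8, and BI3 had no value on it. FLO11 read -0.59, -0.24, -0.83 and -0.16 on the arrays with MA-A1, then MA-A3, MA-A4 and MA-A8, below 0 on all, and was at -0.65 ± 0.12 (adjusted p = 0.0136) without the last and -0.46 ± 0.12 (adjusted p = 0.15) with it. YGL262W had 0.58 on the array with MA-A8 against -0.91, -0.11 and -1.07 on the others.

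By position, no nuclear chromosome had a median beyond 0.15 in one direction against all 4 other lines, with or without MA-A0 over MA-A8. The medians of the 16 nuclear chromosomes in MA-A0 minus the mean of the others ran from -0.10 on chromosome XIII to 0.08 on chromosome IX. Against single lines, the 427 genes of chromosome XIII had a median of -0.54 in MA-A0 minus MA-A3 and of 0.07, -0.02 and 0.04 against MA-A1, MA-A4 and MA-A8. The 445 genes of chromosome XII had a median of -0.26 against MA-A1 and of 0.01, -0.04 and 0.004 against MA-A3, MA-A4 and MA-A8. The 147 genes of chromosome IX had a median of 0.26 against MA-A4 and of 0.01, -0.02 and -0.02 against MA-A1, MA-A3 and MA-A8. Each displacement was thus seen with 1 partner and was present on the array shared with that partner, at -0.48, -0.24 and 0.21. Without MA-A0 over MA-A8 the 3 medians were -0.52, -0.27 and 0.22.

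**Figure D5:**
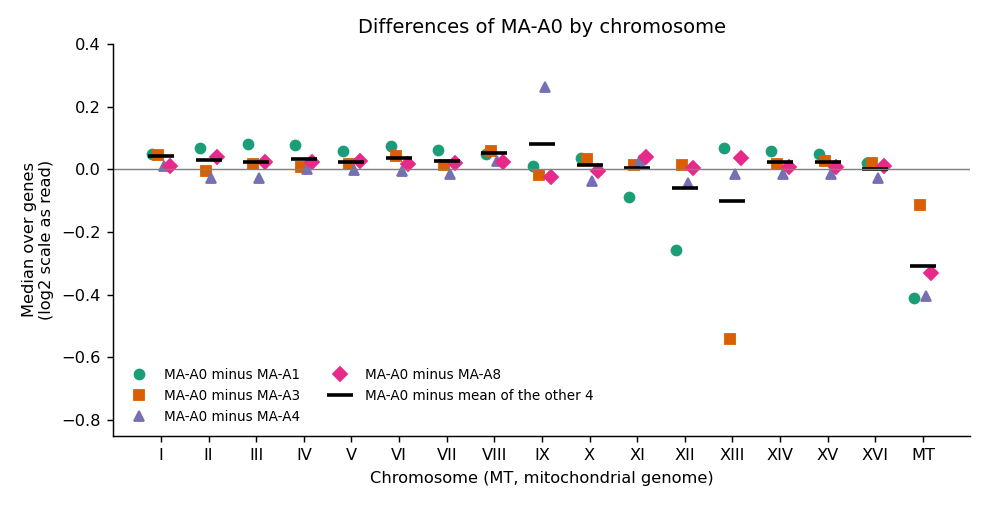
Differences of MA-A0 by chromosome. The y axis gives the median over the genes of a chromosome on the log2 scale as read, with coloured points for MA-A0 minus each other line and black bars for MA-A0 minus the mean of the other 4 lines. Chromosome XIII lies at -0.54 against MA-A3, chromosome XII at -0.26 against MA-A1 and chromosome IX at 0.26 against MA-A4.

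Of the 6 genes lower in MA-A0, 3 lie on chromosome XIII, and without MA-A0 over MA-A8, 35 of the 230 lower genes lie there and 5 of the 218 higher. These are 8.2% and 1.17% of the genes of chromosome XIII, beside 4.25% and 4.03% of all genes. On chromosome XII 22 genes were lower (4.94%), near the share of all genes, and 7 were higher (1.57%). The mitochondrial genome had the lowest median of all, -0.31 over 16 genes, and -0.44 without MA-A0 over MA-A8. Its fitted medians were -0.41, -0.11, -0.40 and -0.33 against MA-A1, then MA-A3, MA-A4 and MA-A8, and -0.53, -0.21, -0.53 and -0.54 without that array. On the arrays shared with these lines the medians were -0.505, 0.18, -0.91 and -0.09. The array with MA-A3 thus had the opposite sign to the fit.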

How the data were processed

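Per the labels, each array compared total RNA of a Cy5 line with that of a Cy3 line. The deposited table holds 1 log ratio per probe row and array, read as log2 of Cy5 over Cy3. How the slides were scanned, background-corrected and normalized is not given in the sources used here. Of 7744 probe rows, 6116 carried a gene name, 6111 of them matched to the R64 annotation (names and chromosomes only), and 1628 without a name were left out. Array medians ran from -0.84 to 0.41 as deposited, so each array was centred on its median and rows of a gene were averaged.

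A linear model (Cy5 line minus Cy3 line, dye term; 5 residual degrees of freedom) was fitted by limma (version 3.58.1, under R 4.3.3) to genes with values on at least 8 of 10 arrays, or 7 of 9, and tested on simulated data. The contrast, the repeat without MA-A0 over MA-A8, the 40 gene lists and the tests were chosen with earlier results of these data known, so no list is independent evidence. Lists are described by counts and medians, without a set test.

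Genes are named by a rule: up to 15 passing genes per direction by size with values on all arrays (or the 10 of smallest p), up to 8 per direction without MA-A0 over MA-A8, those passing in all 4 pairs, the 2 largest per direction of each pair, and up to 4 per list by p. Outside the rule, ARN1, AXL1, BIO5, COX1, COX8, CYB2, GPP2, IMA5, MFA2, NDE2, QCR2, STE2, STE6, YFR006W, YKR005C, YNK1 and YNL195C were chosen after their values were seen. Alternatives were other centrings, no dye term, other filters on missing values, unmoderated and robust variances, each array left out, the 4 arrays with MA-A0 alone, and a turned sign.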

Additional observations from a re-analysis of the deposited data

How the results depend on the processing

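The 18 genes that passed in MA-A0 against the mean of the other lines became 5 on values as deposited without centring, 6 without a dye term, 0 with an unmoderated test (667 at an unadjusted p under 0.05), 30 with a robust prior, 410 with the sign of MA-A0 over MA-A8 turned and 0 from the 4 arrays with MA-A0 alone (253 at an unadjusted p under 0.05). The count was 24 under block centring, where 5 of the 18 no longer passed, 13 with centring off the shifted chromosomes and 18 with each other filter on missing values, of which that for values on all arrays did not test AGA1. Leaving out each array in turn gave 0 (without MA-A1 over MA-A0) to 448 (without MA-A0 over MA-A8). None of the 18 differences from the mean changed sign in any of these settings, and centring off the shifted chromosomes kept 13 of them. In most settings the sign could not change for a gene measured on all arrays. Its difference depends only on the arrays with MA-A0, and dye term, filters, variance settings and the other arrays leave it as it was. The kept sign is thus no separate support. The count of 448 became 4184 on values as deposited, 4182 of them higher, 19 without a dye term and 1 with an unmoderated test, and centring off the shifted chromosomes gave 134 higher and 349 lower. Leaving out a further array gave 0 to 652. Without centring, the median of all genes moved from 0.005 to 0.28, so changes on that scale are relative to it. The cause of these changes was not tested.

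The pair counts moved likewise. Without centring, 6 genes passed against MA-A1, 65 against MA-A3, 10 against MA-A4 and 5 against MA-A8. Without a dye term they were 0 (864 at an unadjusted p under 0.05), 395, 36 and 7, and with an unmoderated test 0, 175, 0 and 0 (961, 734 and 420 at an unadjusted p under 0.05 where 0 passed). With the sign of MA-A0 over MA-A8 turned they were 272 against MA-A1, 1144 against MA-A3 and 0 against MA-A8 (1346 at an unadjusted p under 0.05). Leaving out each array gave 0 to 810 against MA-A1 (lowest without MA-A3 over MA-A1, with 964 at an unadjusted p under 0.05), 176 to 1183 against MA-A3 (lowest without MA-A3 over MA-A0), 18 to 417 against MA-A4 (lowest without MA-A0 over MA-A4) and 2 to 63 against MA-A8 (lowest without MA-A8 over MA-A1), each highest without MA-A0 over MA-A8. Centring off the shifted chromosomes turned 48 higher and 51 lower against MA-A1 into 32 and 75. The 2 lines on an array were compared within it, and the model used that pairing. No further pairing between arrays was possible because the labels carry no replicate numbers and each pair of lines shared 1 array.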
